A study of Homo sapiens with 4 samples.

Results

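The human mitochondrial genome carries 37 genes, and all 37 were found among the 58735 genes of the deposited tables as those whose GENCODE name starts with MT-. They fall into 2 ribosomal RNA genes, 13 protein genes and 22 transfer RNA genes. The study sequenced RNA from cells labelled Huh7, the name of a human liver cancer line. A control short hairpin RNA defines one group (shCtrl, 2 libraries) and a hairpin that targets NME7 the other (shNME7, 2 libraries), with no further treatment, time or clone named in the labels. The labels do not say how the hairpins were delivered or whether replicates came from separate cultures, so the spread between replicates may be technical. Values are given below as those of shCtrl 1 and shCtrl 2 against those of shNME7 1 and shNME7 2, in that order.

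Mitochondrial DNA is copied in many molecules per cell and is transcribed from both of its strands into long precursors by the polymerase POLRMT with the factors TFAM and TFB2M. The precursors are cut at the tRNAs that punctuate them, which frees the rRNAs and mRNAs, and most mRNAs then receive a short poly(A) tail and are held stable by the LRPPRC and SLIRP proteins. The 13 proteins are core subunits of respiratory complexes I, III, IV and V, while the rRNAs and tRNAs serve the mitochondrial ribosome that makes them. Transcription of the heavy strand yields both rRNAs, 12 of the protein mRNAs and 14 tRNAs. Transcription of the light strand yields MT-ND6 and 8 tRNAs.

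4 tRNA sequences and 1 overlap between protein genes are shown, the overlap being that of MT-ATP8, the protein gene with the lowest level. MT-TN, MT-TC and MT-TP held nearly all tRNA fragments, and MT-TH had the lowest unadjusted p in limma-trend among tRNAs with over 50 fragments in each library, while in limma-voom that of MT-TC was lower. The sequences are the GENCODE 29 transcripts (GRCh38), written 5′ to 3′ as DNA letters, and capitals mark the anticodon in the tRNAs.
MT-TN (tRNA-Asn, chrM:5657-5729, minus strand): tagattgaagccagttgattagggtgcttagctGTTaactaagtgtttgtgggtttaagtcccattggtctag
MT-TC (tRNA-Cys, chrM:5761-5826, minus strand): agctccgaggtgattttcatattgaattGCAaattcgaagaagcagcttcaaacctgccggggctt
MT-TP (tRNA-Pro, chrM:15956-16023, minus strand): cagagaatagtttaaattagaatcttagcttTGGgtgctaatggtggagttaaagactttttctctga
MT-TH (tRNA-His, chrM:12138-12206, plus strand): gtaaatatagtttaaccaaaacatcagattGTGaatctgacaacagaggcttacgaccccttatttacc
MT-ATP8 and MT-ATP6 share 46 bases (chrM:8527-8572, plus strand), in which capitals mark the start codon of MT-ATP6 and the stop codon of MT-ATP8: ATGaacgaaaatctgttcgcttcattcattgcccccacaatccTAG

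The libraries held 14877906 to 16991397 fragments, recovered from the deposited FPKM values (fragments corrected for gene length and library depth). NME7, the targeted kinase gene, had 3.64 and 3.93 FPKM against 0.835 and 0.626, a mean 5.18-fold lower, with adjusted p = 0.310 in limma-trend and 0.000998 in limma-voom. Defining hepatocyte transcripts were near 0 in all 4 libraries: APOA1 and APOB were listed at 0 throughout, ALB reached 0.0174 FPKM at most and AFP 0.0190, and all 8 hepatocyte markers together summed to 0.0917 to 0.349 FPKM. The 6 fibroblast markers summed to 92.1 to 103 FPKM, mostly COL3A1 at 66.9 to 76.6, with COL1A2 at 0 to 0.0113. The 6 leukocyte markers summed to 0.0353 to 0.277 FPKM and the 5 endothelial markers to 2.03 to 3.54. The values therefore go against the liver label, and the text speaks of libraries labelled Huh7.

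The mitochondrial share of fragments differed more within each group than between the groups. It was 4.76% (95% exact Clopper-Pearson interval 4.75 to 4.77) in shCtrl 1, 5.92% (5.91 to 5.93) in shCtrl 2, 6.59% (6.58 to 6.60) in shNME7 1 and 4.24% (4.23 to 4.25) in shNME7 2. The highest and the lowest value both belonged to shNME7, with the shCtrl libraries between them. The means were 5.34% ± 0.821 in shCtrl and 5.41% ± 1.66 in shNME7 (SD, n = 2), with p = 1.00 in an exact two-sided permutation test, which with 2 against 2 libraries cannot go below 0.333. Intervals cover counting error only. Without shNME7 1 the difference in share was -1.10 percentage points and without shNME7 2 it was 1.25. Without shCtrl 1 it was -0.504 and without shCtrl 2 it was 0.657. The direction was therefore set by which library was kept, in either group. In such bulk libraries, a change in the RNA of each cell and a change in the mix of cells cannot be told apart.

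The 2 rRNA genes held 1.91% and 2.28% of fragments against 2.76% and 1.59%. The 13 protein genes held 2.80% and 3.60% against 3.78% and 2.61%. In both classes shNME7 1 was highest and shNME7 2 lowest, and the groups overlapped. The 22 tRNA genes held 0.0397% and 0.0389% against 0.0531% and 0.0392%, where shNME7 1 stood apart and the other 3 libraries lay together. Exact permutation p-values were 1.00 for the rRNA and protein classes and 0.667 for the tRNA class. Per protein gene fragment there were 0.682 and 0.633 rRNA fragments against 0.730 and 0.607, and the groups overlapped here too.

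**Figure D1:**
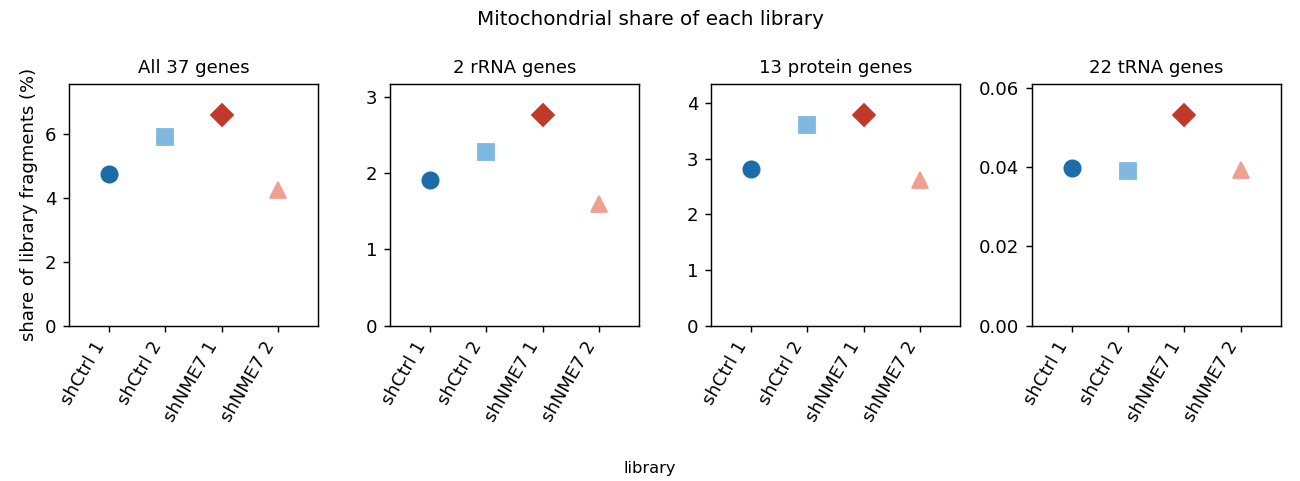
Share of all recovered fragments (%, y axis, from 0) held by the 37 mitochondrial genes and by each class, 1 point per library (x axis). shNME7 1 is the highest and shNME7 2 the lowest for all genes (6.59% and 4.24%), for rRNA genes and for protein genes, with the shCtrl libraries between them.

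In the fit over all genes, limma-trend on log2(FPKM + 1) with Benjamini-Hochberg adjustment called 0 of the 36 members that passed the filter (a mean of at least 1 FPKM), where it called 0 of 12866 genes (0%). MT-TM was the member that did not pass. limma-voom on the recovered fragments also called 0 of its 27 members, where it called 0.106% of 15112 genes. At an unadjusted p under 0.05 there were 7 members in limma-trend, all of them tRNA genes, against 6.68% of all genes, and 3 in limma-voom, MT-RNR1, MT-TC and MT-TH, against 7.92%. A higher or lower mean here and below is that of log2(FPKM + 1). Of the 36, 22 had a higher and 14 a lower mean in shNME7 (24 and 12 by mean FPKM, which turned MT-ND2 and MT-ND4), with a median log2 difference of 0.09, beside 0.01 over all 12866 genes. The groups did not overlap for 10 higher members and 1 lower member, where 17.8% of tested genes lay wholly higher (both shNME7 values over both of shCtrl) and 18.4% wholly lower. 5 tRNA genes with few fragments (MT-TQ, MT-TW, MT-TA, MT-TS1 and MT-TE) averaged under 1 FPKM in shCtrl and passed the filter only through shNME7. They include 3 of the 10 that lay wholly higher and 3 of the 7 at an unadjusted p under 0.05, so these counts are set in part by the filter and are a description.

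Which libraries were kept decided the sign for most members. With 1 library left out in turn, 21 of the 36 took both signs and 15 kept theirs. limma-trend with 1 library left out, in which the lone library of a group is assumed to vary like the other group, called 5 of the 36 members without shCtrl 1 (1.03% of all genes), 2 without shCtrl 2 (0.871%), 10 without shNME7 1 (4.91%) and 7 without shNME7 2 (2.15%). MT-RNR1, MT-TH, MT-TI and MT-TS2 were called without shNME7 1 only, and the other members called, all tRNA genes, had at most 12 fragments in a library and include all 5 that passed the filter only through shNME7. Without shNME7 2 all 13 protein genes had a higher mean in shNME7, and without shNME7 1 9 of the 13 had a lower mean. The control libraries moved them in a like way, with 12 of the 13 higher without shCtrl 2 and 9 lower without shCtrl 1. The order of levels among the 15 rRNA and protein genes was nearly the same in every library, with Spearman rho from 0.968 to 0.993 for the 6 pairs of libraries, which share the genes and their lengths. Their median shift ran from -0.48 in log2 (shNME7 1 to shNME7 2) to 0.42 (shCtrl 1 to shNME7 1), while shCtrl 2 and shNME7 1 differed by 0.06.

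The libraries also differed in how their values depended on the GC content of the genes. Across 12821 nuclear genes, which are not independent replicates, the deviation of a library from the mean of the 4 had a Spearman rho with GC of 0.26 in shCtrl 1, -0.62 in shCtrl 2, -0.37 in shNME7 1 and 0.66 in shNME7 2. The rho was negative in the same libraries in which the mitochondrial share was above 5%. The rRNA and protein genes have a GC content of 39.6% to 47.7%, beside a median of 48.1% over those nuclear genes. The median deviation of the 15 genes in log2 was -0.16, 0.17, 0.25 and -0.26 in the same order of libraries, and -0.13, 0.18, 0.17 and -0.20 after a trend on GC and length had been removed. The signs were the same after removal, and the deviations were smaller in every library except shCtrl 2. Whether GC content bears on the pattern was not tested.

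The 2 rRNA genes took opposite signs, and neither passed the test with all libraries. MT-RNR1 (ENSG00000211459, chrM:648-1601, plus strand of GRCh38), the RNA of the small mitochondrial ribosomal subunit, had 3162 and 4792 FPKM against 3583 and 1660. The low value was that of shNME7 2, and shNME7 1 lay between the shCtrl libraries. MT-RNR2 (ENSG00000210082, chrM:1671-3229, plus strand), the RNA of the large subunit, had 10302 and 11619 FPKM against 15321 and 9172. It was the most abundant member, with 30.8% to 36.6% of all mitochondrial fragments.

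MT-RNR1 differed by -0.67 in log2 (SE 0.39), with adjusted p = 0.796 in limma-trend and 0.575 in limma-voom. It stayed below 0 with any 1 library left out, from -1.23 without shNME7 1 to -0.12 without shNME7 2. Without shNME7 1 it passed in limma-trend (adjusted p = 0.00457). Over its 11 alternatives the adjusted p ran from 0.00457 to 1.00. For MT-RNR2 the difference was 0.12 (SE 0.28), adjusted p = 0.936, and it turned to -0.25 without shNME7 1.

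The ratio of MT-RNR2 to MT-RNR1, in FPKM, was 3.26 and 2.42 against 4.28 and 5.53. Both values of the knockdown exceeded those of the controls, with means of 2.84 ± 0.590 and 4.90 ± 0.883 (n = 2), a ratio 1.72-fold higher. The exact permutation p was 0.333, the lowest that 4 libraries allow. This ratio does not depend on the library total. It was chosen after the values were seen. With 1 library left out the difference of the ratios ran from 1.43 to 2.68.

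**Figure D2:**
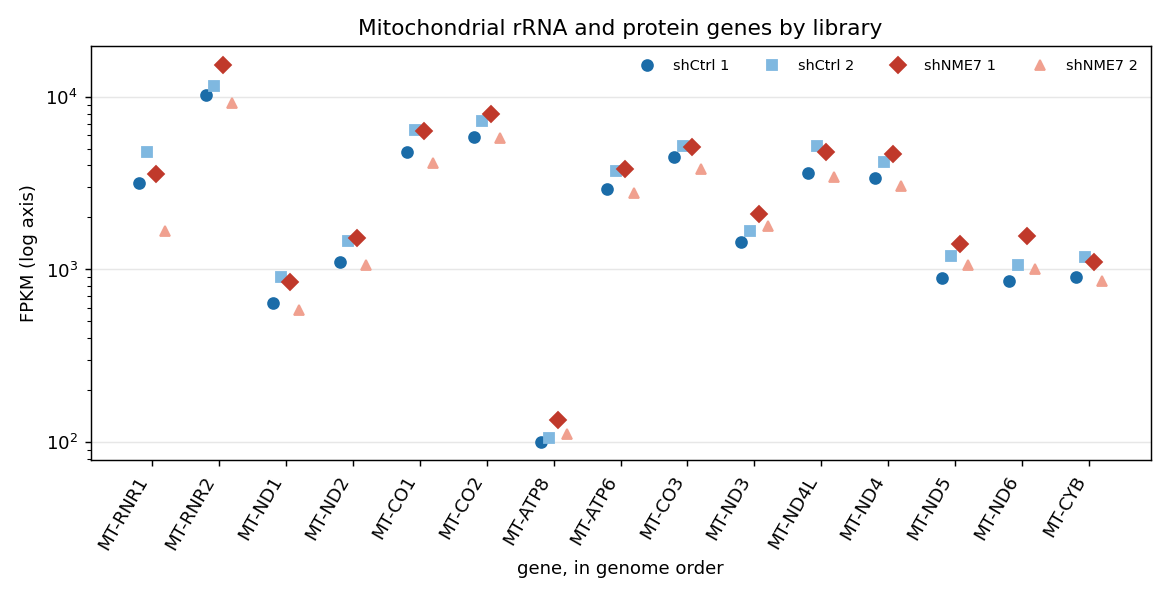
FPKM (y axis, log scale) of the 2 rRNA and 13 protein genes in genome order (x axis), 1 point per library. MT-RNR2 is highest at 9172 to 15321 FPKM and MT-ATP8 lowest at 101 to 134, and for most genes shCtrl 1 and shNME7 2 lie below shCtrl 2 and shNME7 1, with MT-RNR1 in shNME7 2 far below the rest.

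Among the 13 protein genes the highest library was shNME7 1 for 8 and shCtrl 2 for 5, and the lowest was shNME7 2 for 9 and shCtrl 1 for 4. 5 had a higher and 8 a lower mean log2(FPKM + 1) in shNME7 (7 and 6 by mean FPKM), with a median log2 difference of -0.00, and their adjusted p in limma-trend ran from 0.795 to 1.00. The groups did not overlap for MT-ND3 and MT-ATP8, both higher in shNME7, beside 36.2% of tested genes in either direction.

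Complex I, the NADH dehydrogenase, takes 7 subunits from the mitochondrial genome, all of them in its proton-pumping membrane arm. MT-ND1 (chrM:3307-4262) had 636 and 904 FPKM against 849 and 581. MT-ND2 (chrM:4470-5511) had 1109 and 1460 against 1522 and 1057. In both genes shNME7 2 was lowest and the groups overlapped. MT-ND4L (chrM:10470-10766) had 3596 and 5172 FPKM against 4793 and 3448. MT-ND4 (chrM:10760-12137), which is read from the same mRNA, had 3368 and 4198 against 4642 and 3045. The genes share 7 bases, and their ratio in FPKM was 1.07 and 1.23 against 1.03 and 1.13, so the values of this pair stayed close to each other.

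The other complex I genes were MT-ND3, MT-ND5 and MT-ND6, which had a higher mean in shNME7 with any 1 library left out. MT-ND3 (chrM:10059-10404) had 1440 and 1662 FPKM against 2092 and 1779, a log2 difference of 0.32 (SE 0.18, adjusted p = 0.795 in limma-trend) that ran from 0.20 to 0.44 with 1 library left out. The groups did not overlap. MT-ND5 (chrM:12337-14148) had 896 and 1194 against 1402 and 1068, a difference of 0.24 (SE 0.22, adjusted p = 0.839) with a range of 0.04 to 0.45. MT-ND6 (chrM:14149-14673, minus strand), the protein gene of the light strand, had 852 and 1063 against 1572 and 1007, a difference of 0.40 (SE 0.25, adjusted p = 0.816) with a range of 0.08 to 0.72. For MT-ND5 and MT-ND6 shNME7 1 was highest and shNME7 2 lay between the shCtrl libraries.

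Complex III takes its cytochrome b from MT-CYB (chrM:14747-15887), which had 908 and 1182 FPKM against 1110 and 859. Complex IV, cytochrome c oxidase, takes its catalytic core from 3 mitochondrial genes. MT-CO1 (chrM:5904-7445) had 4785 and 6422 against 6336 and 4130 FPKM. MT-CO2 (chrM:7586-8269), the most abundant protein gene per length in every library, had 5835 and 7233 against 7934 and 5796. All of these overlapped between the groups. MT-CO3 (chrM:9207-9990) had 4473 and 5187 FPKM against 5129 and 3795, a log2 difference of -0.13 (SE 0.22, adjusted p = 0.907). With 1 library left out the difference of MT-CYB ran from -0.27 to 0.10, that of MT-CO1 from -0.42 to 0.19 and that of MT-CO3 from -0.34 to 0.09.

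Complex V, the ATP synthase, takes subunits a and A6L from MT-ATP6 and MT-ATP8, which are read from a shared mRNA. MT-ATP6 (chrM:8527-9207) had 2923 and 3723 FPKM against 3796 and 2758. MT-ATP8 (chrM:8366-8572) had 101 and 105 against 134 and 111, the lowest level of any rRNA or protein gene in all 4 libraries. Its log2 difference was 0.24 (SE 0.16, adjusted p = 0.819), from 0.11 to 0.37 with 1 library left out. The FPKM of MT-ATP8 was 0.0345 and 0.0283 against 0.0352 and 0.0404 of that of MT-ATP6, although both lie on that mRNA. The 46 shared bases printed above are part of the 207 bases of MT-ATP8, and how fragments over 2 genes were counted is not given in the sources used here. The level of MT-ATP8 against its neighbour is therefore uncertain.

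The make-up of the protein gene fragments was compared as the share of each gene in the 13, which does not depend on the library total. The shares of 6 of 13 genes did not overlap between the groups, higher in shNME7 for MT-CO2, MT-ND3, MT-ND5 and MT-ND6 and lower for MT-ND1 and MT-CO1. Over all tested genes scaled to the same sum, 16.4% did not overlap, made up of 5.56% that were higher and 10.8% that were lower. That sum varied more within the groups than between them (2.80% and 3.60% of fragments against 3.78% and 2.61%). This swing is common to the 13 genes but not to the nuclear ones, so 16.4% is not a like background for the 6. By FPKM, 36.2% of tested genes did not overlap. The shares of the 13 add up to a whole and so are not independent of each other, and these shares were examined after the levels were known. With 2 against 2 libraries the lowest exact permutation p is 0.333, so none can pass 0.05.

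MT-ND6 made up 1.60% and 1.56% of the protein gene fragments against 2.21% and 2.02%. Per fragment of the 12 heavy-strand protein genes there were 0.0163 and 0.0158 MT-ND6 fragments against 0.0226 and 0.0206, a light to heavy ratio 1.35-fold higher (exact permutation p = 0.333). The gap between the groups was wider than the spread within either. MT-ND5, which lies next to MT-ND6 on the opposite strand, made up 5.80% and 6.04% against 6.79% and 7.40%. MT-ND3 made up 1.78% and 1.61% against 1.94% and 2.35%. Of these, MT-ND3 showed the narrowest gap between the groups relative to its spread.

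MT-CO1 made up 26.4% and 27.6% of the protein gene fragments against 26.1% and 24.4%, the largest share of any protein gene. MT-CO2 made up 14.3% and 13.8% against 14.5% and 15.2%, and MT-ND1 made up 2.17% and 2.41% against 2.17% and 2.12%. For MT-CO2 and MT-ND1 the shCtrl 1 and shNME7 1 values lay close to each other. Whether fragments were counted by strand is not given in the sources used here, so reads of MT-ND6 and reads of heavy-strand RNA over it cannot be told apart.

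**Figure D3:**
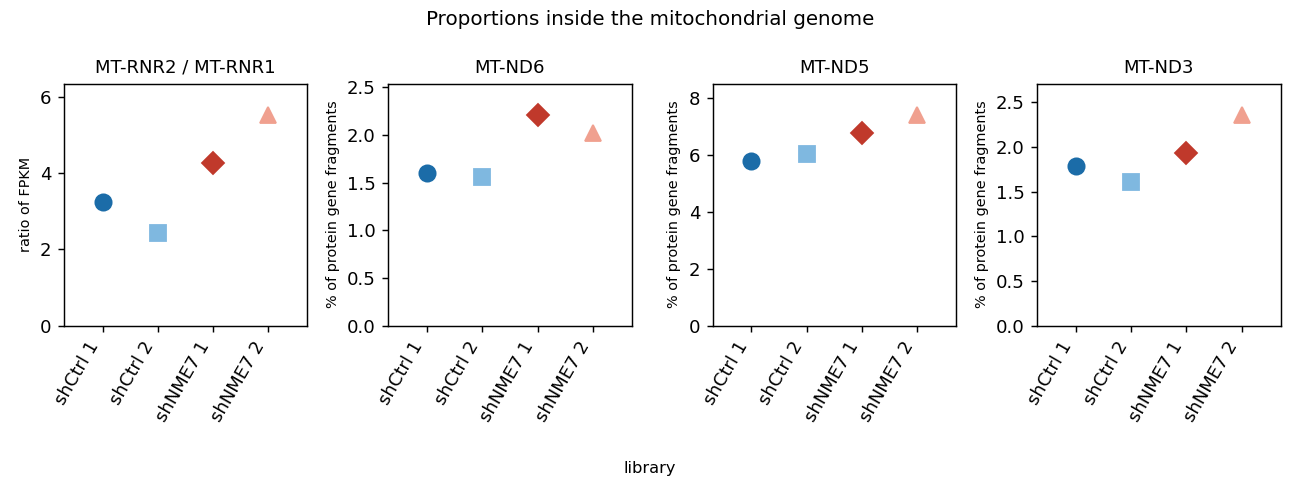
4 proportions inside the mitochondrial genome (y axes from 0), 1 point per library (x axis): the ratio of MT-RNR2 to MT-RNR1 in FPKM, and MT-ND6, MT-ND5 and MT-ND3 as a percentage of protein gene fragments. In each panel both shNME7 points lie above both shCtrl points, as for the rRNA ratio with 3.26 and 2.42 against 4.28 and 5.53. The panels were chosen with the values known. Of the shares of the 13 protein genes, 7 overlapped between the groups and 2 were lower in shNME7 (MT-ND1 and MT-CO1).

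The tRNA genes are 59 to 75 bases long and were counted very unevenly. Counts by gene do not tell mature tRNAs from the longer precursors that contain them, so the values below need not be levels of mature tRNA. MT-TN, MT-TC and MT-TP, all genes of the light-strand transcript, together held 92.8% and 91.5% of tRNA fragments against 92.0% and 90.9%. Whether fragments were counted by strand is not given, so heavy-strand RNA over these genes cannot be told apart from their own. No other tRNA gene had over 189 fragments in a library, and 10 of the 22 had a mean under 10. The neighbour MT-TA, 1 base from MT-TN on the same strand, had 0 to 4 fragments. Between MT-TN and MT-TC lie 31 bases without a gene, where the origin of light-strand replication sits, and MT-TP is the last gene before the non-coding control region. MT-TF, on the other side of the control region, had 0 to 5 fragments.

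MT-TN, the tRNA for asparagine, had 2958 and 3057 fragments against 3799 and 1961. Its FPKM values were 2546 and 2596 against 3463 and 1582, so the shCtrl libraries agreed while the shNME7 libraries lay on either side of them. MT-TC, the tRNA for cysteine, had 1904 and 1405 fragments against 2285 and 2738, and 1813 and 1320 against 2304 and 2443 FPKM. The groups did not overlap, and the highest library was shNME7 2, as for MT-TP but for none of the rRNA and protein genes. Its log2 difference was 0.62 (SE 0.21, adjusted p = 0.728 in limma-trend and 0.350 in limma-voom). With 1 library left out this difference took values from 0.39 to 0.85. MT-TP, the tRNA for proline, had 984 and 1245 against 1175 and 1351 fragments and a log2 difference of 0.19 (SE 0.18, adjusted p = 0.843), from 0.03 to 0.35 with 1 library left out.

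These 3 genes did not share an order of libraries. The ratio of MT-TC to MT-TN in FPKM was 0.712 and 0.508 against 0.665 and 1.54, and so overlapped between the groups. The high value was that of shNME7 2 alone.

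8 further tRNA genes had 7 to 189 fragments in a library. MT-TH, the tRNA for histidine, had 88.3 and 71.9 FPKM against 124 and 161. That is 97 and 80 fragments against 129 and 189, with both shNME7 libraries higher. In log2 this gave 0.82 (SE 0.19), at adjusted p = 0.572 in limma-trend and 0.465 in limma-voom. It ran from 0.64 to 1.01 with 1 library left out, and passed in limma-trend without shNME7 1 (adjusted p = 0.00128, range 0.00128 to 0.884 over 11 alternatives). The neighbouring genes MT-TS2 and MT-TL2, which follow MT-TH directly, had 23 and 30 against 21 and 69 fragments, and 18 and 12 against 22 and 23. MT-TS2, for serine, was high in shNME7 2 alone, and MT-TL2, for leucine, was higher in both shNME7 libraries (log2 difference 0.58, adjusted p = 0.728, from 0.30 to 0.86 with 1 library left out).

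MT-TG, for glycine, had 87 and 133 against 165 and 72 fragments, and MT-TR, for arginine, had 84 and 98 against 143 and 74. These genes flank MT-ND3, and both were highest in shNME7 1 and lowest in shNME7 2. MT-TY, for tyrosine, had 53 and 53 against 55 and 82 fragments. MT-TL1, for leucine, had 31 and 76 against 34 and 43, and MT-TI, for isoleucine, had 27 and 15 against 23 and 7. MT-TL1 and MT-TI overlapped between the groups.

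The other 11 tRNA genes had 0 to 15 fragments in any library, beside an upper limit of 3 for a gene counted at 0. MT-TV had 7 and 15 fragments against 8 and 13, and MT-TT, for threonine, had 10 and 8 against 4 and 3. MT-TT was the single member that lay wholly lower in shNME7, with a log2 difference of -1.14 (SE 0.20, adjusted p = 0.469, range 1.46e-08 to 0.773 over 10 alternatives); it passed in limma-trend without shCtrl 2, without shNME7 1 and without shNME7 2. MT-TE, for glutamate, had 1 and 1 against 5 and 3 (log2 difference 1.26, SE 0.26, adjusted p = 0.505, range 1.21e-07 to 0.797). It passed with any 1 library left out, but it is 1 of the genes that reached the filter only through shNME7, where it is high. MT-TS1 had 1 and 0 against 3 and 2. MT-TA had 2 and 0 fragments against 4 and 3, and MT-TK had 5 and 0 against 3 and 12. MT-TD had 4 and 5 against 4 and 7, MT-TW 2 and 0 against 3 and 1, and MT-TF 1 and 2 against 5 and 0. MT-TQ had 1 and 1 against 3 and 0, and MT-TM 0 and 2 against 1 and 0. At this depth these differences rest on a few fragments each, and adjusted p-values for these genes in limma-trend ran from 0.469 to 0.996.

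**Figure D4:**
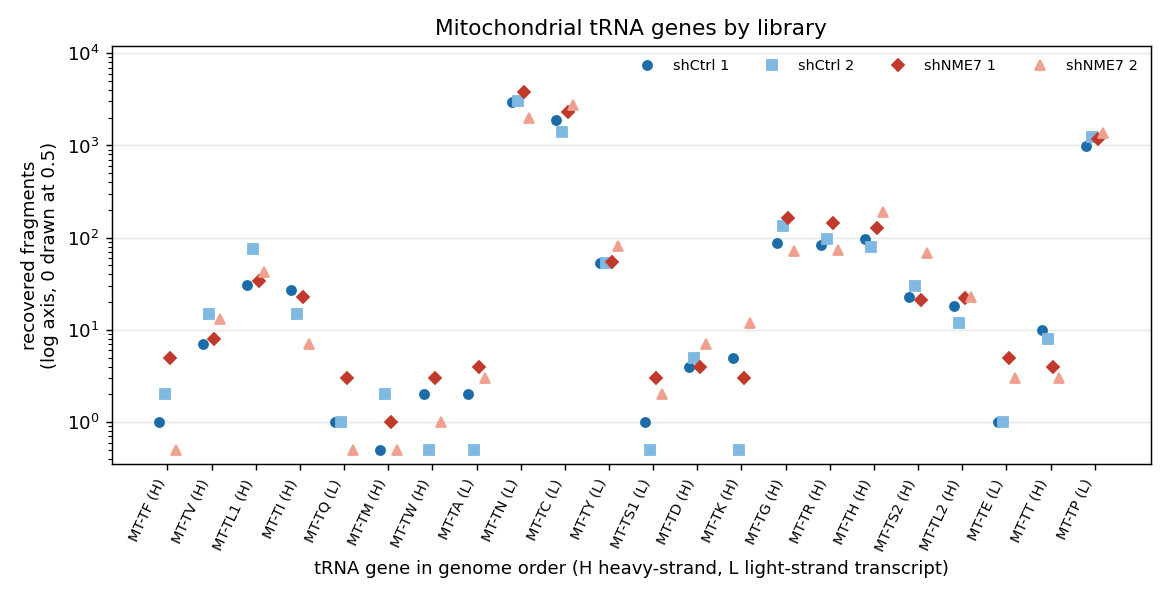
Recovered fragments (y axis, log scale, with 0 drawn at 0.5) of the 22 tRNA genes in genome order (x axis), 1 point per library, with H for heavy-strand and L for light-strand transcripts. MT-TN, MT-TC and MT-TP lie between 984 and 3799 fragments and every other tRNA gene at 189 or below.

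**Figure D5:**
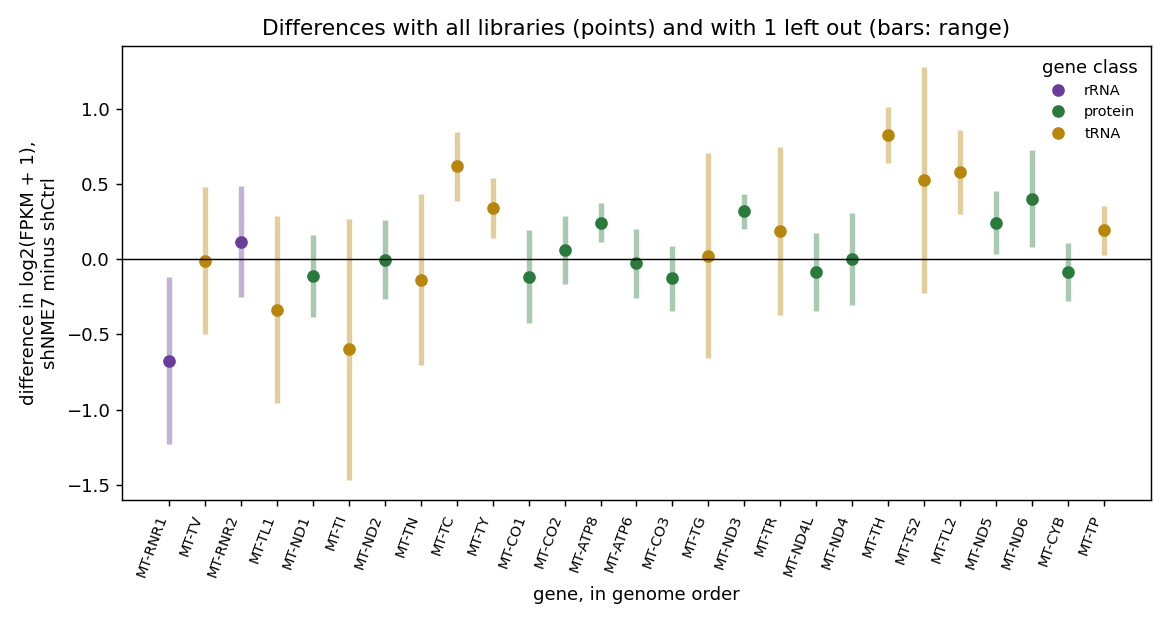
Difference in log2(FPKM + 1), shNME7 minus shCtrl (y axis), for the 27 members with a mean of at least 10 fragments, in genome order (x axis): points use all 4 libraries and bars span the range with 1 library left out in turn. Most bars cross 0; those of MT-RNR1 (below) and of MT-TC, MT-TY, MT-ATP8, MT-ND3, MT-TH, MT-TL2, MT-ND5, MT-ND6 and MT-TP (above) do not.

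The nuclear genes that make, cut and keep mitochondrial RNA were described from 7 lists, and 0 of their members passed in limma-trend or limma-voom. At an unadjusted p under 0.05 in limma-trend there were 2 list members, YRDC of the maturation list and PPARGC1A of the biogenesis regulators, beside 6.68% of all genes, and in limma-voom there were these and SLIRP, beside 7.92%. The counts that lay wholly higher or lower stand beside 17.8% and 18.4% of all tested genes. Of 10 transcription genes 8 had a higher mean in shNME7 and 2 a lower one (7 higher by mean FPKM), and the groups did not overlap for 2 higher and 1 lower, beside 36.2% in either direction. The polymerase gene POLRMT had 26.6 and 17.3 FPKM against 19.9 and 25.1. TFAM, which packages mitochondrial DNA and starts its transcription, had 19.1 and 20.6 against 18.4 and 15.1, a log2 difference of -0.24 (adjusted p = 0.819), from -0.37 to -0.10 with 1 library left out. TFB2M, the initiation factor, had 25.5 and 22.7 against 26.1 and 23.7, and TEFM, the elongation factor, had 4.54 and 5.10 against 6.05 and 4.82. Of the 4, the groups did not overlap for TFAM alone, which was lower in shNME7.

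Of 14 RNA stability and decay genes 8 had a higher and 6 a lower mean, with 4 wholly higher (17.8% of all genes) and 1 wholly lower (18.4%). LRPPRC, which binds and stabilises the mRNAs, had 36.4 and 41.2 FPKM against 36.8 and 30.9. Its partner gene SLIRP had 15.8 and 11.1 against 16.1 and 23.2, a log2 difference of 0.52 (SE 0.23, adjusted p = 0.776), from 0.27 to 0.77 with 1 library left out. The mean in shNME7 was thus lower for LRPPRC, whose groups overlapped, and higher for SLIRP, and neither gene passed. PNPT1 and SUPV3L1, which form the RNA-degrading complex, had 15.3 and 20.2 against 20.8 and 17.0 and 12.3 and 14.1 against 13.1 and 10.5. The 4 cleavage genes all had a higher mean and all overlapped. ELAC2, which cuts at the 3′ end of tRNAs, had 32.3 and 30.8 against 29.6 and 35.6, and TRMT10C, a subunit of the enzyme that cuts at the 5′ end, had 27.4 and 31.0 against 32.1 and 29.0.

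In the next 4 lists the counts again stand beside 17.8% of all tested genes wholly higher and 18.4% wholly lower. Of 10 replication and maintenance genes 9 had a higher mean and 3 were wholly higher. Of 18 tRNA and rRNA maturation genes 10 had a higher and 8 a lower mean, with 4 wholly higher and 2 wholly lower. Of 13 translation factors 6 had a higher and 7 a lower mean, with 3 wholly higher and 3 wholly lower. Of 8 regulators of mitochondrial biogenesis 2 had a higher and 6 a lower mean, and 4 were wholly lower. PPARGC1A, a coactivator of that programme, had 2.21 and 2.50 FPKM against 1.44 and 1.34, a log2 difference of -0.49 (SE 0.17, adjusted p = 0.728 in limma-trend and 0.262 in limma-voom).

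The mitochondrial subunits were set beside the nuclear-encoded subunits of the same complexes. For complex I the 7 mitochondrial genes summed to 11896 and 15653 FPKM against 16872 and 11985, and the 37 nuclear genes to 1386 and 1230 against 1482 and 1813. For complex IV the 3 mitochondrial genes summed to 15092 and 18843 against 19399 and 13721, and the 11 nuclear genes to 795 and 679 against 849 and 1067. In both complexes shNME7 2 held the highest nuclear sum, while its mitochondrial sum was the lowest for complex IV and the second lowest for complex I. For complex III, MT-CYB had the values given above and the 9 nuclear genes summed to 679 and 582 against 677 and 867 FPKM. For complex V the mitochondrial pair summed to 3024 and 3828 against 3930 and 2869, and the 15 nuclear genes to 1288 and 1210 against 1268 and 1476. The summed FPKM of all 13 mitochondrial genes was 7.45 and 10.7 times that of the 72 nuclear genes against 9.66 and 5.64 times (exact permutation p = 0.667). The groups overlapped, with shNME7 2 lowest and shCtrl 2 highest.

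The nuclear subunit genes themselves mostly had a higher mean in shNME7, beside 6712 of all 12866 tested genes. These were 31 of 34 tested genes of complex I, 9 of 9 of complex III, 11 of 11 of complex IV and 15 of 15 of complex V. Wholly higher in shNME7 were 15, 5, 8 and 10 of them, beside 17.8% of all tested genes, and none lay wholly lower. In limma-trend and in limma-voom 0 passed, with 12 and 24 at an unadjusted p under 0.05, beside 6.68% and 7.92% of all genes. The summed FPKM of the nuclear genes was highest in shNME7 2 in every complex. That of shNME7 1 lay above both shCtrl sums in complexes I and IV, but below that of shCtrl 1 in complexes III and V. shNME7 2 was also the library with a GC rho of 0.66, and a link was not tested. Of the 13 mitochondrial subunit genes 5 had a higher mean log2(FPKM + 1) and 7 a higher mean FPKM.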

How the data were processed

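Gene values are FPKM, deposited by the authors for 58735 genes in each of the 4 libraries, per the file headers. The labels' protocols name Trizol extraction and standard Illumina library preparation. Not given in the sources used here are poly(A) selection, strand, the counting tool and its annotation. HISAT2 2.0.5 and the build hg18 are listed in the submitters' processing notes. All gene IDs occur in GENCODE 29, which gave names, exon lengths, sequences and coordinates on GRCh38. FPKM times exon length, rescaled, gave whole fragments (within 0.01) for 100% of values above 0.

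The main test was limma-trend (limma 3.58.1, R 4.3.3) on log2(FPKM + 1) with a group term, over genes whose FPKM averaged 1 or more, two-sided, with Benjamini-Hochberg adjustment and a threshold of 0.05. This scale understates changes of low genes. Alternatives were limma-voom on recovered fragments (mean of 10 or more), a pseudocount of 0.1, no filter, a replicate block, leaving out each library, other scalings, and removal of a loess trend on GC and length (span 0.3). Both fits were tested on counts simulated with known changes, where limma-trend called more unchanged genes than limma-voom did. The chi-square per degree of freedom between libraries was 14.0 to 43.8, so none agreed within sampling noise.

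Named are all rRNA and protein genes, the tRNA genes that passed the filter, 11 genes of mitochondrial RNA metabolism and biogenesis fixed by name, and the 6 nuclear pseudogene copies with the most fragments. MT-TM and YRDC were named after their values were seen. Anticodons were located as their letters after a T and before A or G. The members, lists and rules were chosen with earlier results of these data known.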

Additional observations from a re-analysis of the deposited data

How the results depend on the processing

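Over all genes, limma-trend called 0 with 4 libraries, 122 with the replicate block, 0 with crossed numbers in that block, 1 with the GC and length trend removed and 112 to 632 with 1 library left out, and limma-voom called 16. Same-numbered libraries did not deviate together (r = -0.35 over 12866 genes), so the numbers are not shown to pair the samples; the crossed numbers were added after seeing the data. With the block 5 members passed (MT-TA, MT-TE, MT-TK, MT-TS1 and MT-TT). All of these had at most 12 fragments in a library, and MT-TA, MT-TE and MT-TS1 reached the filter only through shNME7, where they are high. With 1 library left out, differences in share (percentage points) ran from -1.10 to 1.25 for all mitochondrial genes, -0.509 to 0.661 for rRNA, -0.589 to 0.576 for protein and -0.000132 to 0.0138 for tRNA genes. The rRNA to protein ratio ran from -0.0503 to 0.0722, the mitochondrial to nuclear subunit ratio from -3.43 to 0.597 and the MT-ND4L to MT-ND4 ratio from -0.150 to 0.0147. The log2 differences that took both signs ran, for rRNA and protein genes, from -0.25 to 0.49 for MT-RNR2, -0.38 to 0.16 for MT-ND1, -0.27 to 0.26 for MT-ND2, -0.35 to 0.18 for MT-ND4L, -0.30 to 0.30 for MT-ND4, -0.27 to 0.10 for MT-CYB, -0.42 to 0.19 for MT-CO1, -0.16 to 0.29 for MT-CO2, -0.34 to 0.091 for MT-CO3 and -0.26 to 0.20 for MT-ATP6. For tRNA genes they ran from -1.19 to 1.32 for MT-TF, -0.50 to 0.48 for MT-TV, -0.96 to 0.29 for MT-TL1, -1.46 to 0.27 for MT-TI, -0.90 to 1.01 for MT-TQ, -0.072 to 1.44 for MT-TW, -0.70 to 0.43 for MT-TN, -0.056 to 0.47 for MT-TD, -0.66 to 0.70 for MT-TG, -0.37 to 0.74 for MT-TR and -0.22 to 1.28 for MT-TS2. Other settings turned small differences: a pseudocount of 0.1 gave -0.96 for MT-TF and -0.85 for MT-TQ, limma-voom 0.0017 for MT-TV and -0.0040 for MT-TG, trend removal 0.0015 for MT-TV and -0.0021 for MT-TQ, and scaling to all or to nuclear fragments 0.0012 and 0.0025 for MT-ND4. The protein share difference was 0.00516 with nuclear protein-coding fragments as denominator, the rRNA to protein ratio -0.0821 from mean FPKM and the subunit ratio 0.850 from medians; the cause was not tested. The values of the 10 tRNA genes with a mean under 10 fragments are limited by these low counts.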

Other observations

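The nuclear genome holds pseudogene copies of mitochondrial genes, and 407 such annotated genes were looked at beside the 37 originals. Only 22 to 32 of them had a fragment in a library, and 3 genes on chromosome 1 held 98.8% to 99.3% of their fragments: MTATP6P1, MTND2P28 and MTCO1P12. MTATP6P1 had 3379 and 3818 fragments against 3504 and 2517 (shCtrl 1 and 2 against shNME7 1 and 2), or 10.7% and 9.34% against 9.02% and 7.89% of the fragments of MT-ATP6. MTND2P28 had 1495 and 1998 against 1620 and 1358, or 8.13% and 8.15% against 6.80% and 7.26% of MT-ND2. MTCO1P12 had 824 and 915 against 861 and 1094, or 0.702% and 0.573% against 0.586% and 1.01% of MT-CO1. For the first pair of copies the percentages were lower in both shNME7 libraries, and for MTCO1P12 they overlapped. The next copies, MTND4P12, MTND5P11 and MTND5P42, had at most 11 fragments in a library. Near-identical copies can take each other's reads, so the values of MT-ATP6, MT-ND2 and MT-CO1 are uncertain. All 407 copies together came to 0.618% to 0.761% of the mitochondrial fragments, and adding them changed the difference in mitochondrial share from 0.0766 to 0.0725 percentage points.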
